A study of Mus musculus with 12 samples.

Results

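The cell division and replication genes are 40 mouse genes that act in copying DNA or in splitting the chromosomes between daughter cells. They were taken by symbol from the deposited count table, where they are 40 of 27179 gene identifiers, and all 40 passed the filter on low counts in every comparison. The study sequenced RNA of dendritic cells grown from bone marrow and RNA of exosomes, small vesicles shed into the medium, with both taken from the culture of each of 6 mice. The wild-type (WT) mice were 33 and 42, both female, and 46, a male, while mice 151, 152 and 153, all males, carried the label Sidt1/Sidt2 double knock-out (DKO), so genotype and sex cannot be fully told apart. Every group held 3 libraries, 1 per mouse, and p-values measure the spread between mice. All mice were C57Bl/6, and their femur marrow spent 7 days in DMEM that held fetal calf serum (10%) and, as a source of GM-CSF, supernatant of the X-63 line (10%). Cell RNA was extracted with Tri-Reagent and vesicle RNA with Trizol LS and a Qiagen kit, so that extraction and compartment cannot be told apart. The labels give no age.

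Proliferating cells switch these genes on in waves. Genes for licensing origins, building nucleotides and running the replication fork peak around the entry into S phase under E2F transcription factors. Genes for condensing, attaching and separating chromosomes peak in G2 and mitosis. The MuvB complex, B-Myb and Foxm1 then act on promoters that often carry a cell cycle homology region (CHR) and CCAAT boxes. Marrow cultures with GM-CSF contain dividing precursors together with mature cells that have left the cycle. The 40 genes were grouped by role into 9 replication genes, 3 genes of nucleotide supply, 8 cyclin, kinase and transcription factor genes, 10 genes of mitotic kinases, checkpoint and ubiquitin ligase, and 10 genes of chromosomes, kinetochore and spindle. By phase, 15 belong to G1/S and 25 to G2/M.

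Promoters of RefSeq (build GRCm38.p6, 250 bases before to 50 after a start site) could be matched for 33 of the 40 genes. For 28 of these a start lay within 50 bases of a protein-coding transcript start of the annotation. Shown are the promoter of the most abundant gene per length of each role class and that of Top2a, which was added after its values were seen. They are printed on the gene's strand. Capitals mark 3 kinds of letters on either strand. The CHR letters searched were TTTGAA and also the form TTCGAA. The E2F-type letters were TTCCCGC, with the further forms TTCGCGC and, besides these, TTGGCGC. The CCAAT box was searched by its name. The start lies 134 bases from the nearest protein-coding transcript start in the Pcna promoter and 57 bases from it in the Cenpa promoter.
Top2a (chr11:99024140-99024439, minus strand): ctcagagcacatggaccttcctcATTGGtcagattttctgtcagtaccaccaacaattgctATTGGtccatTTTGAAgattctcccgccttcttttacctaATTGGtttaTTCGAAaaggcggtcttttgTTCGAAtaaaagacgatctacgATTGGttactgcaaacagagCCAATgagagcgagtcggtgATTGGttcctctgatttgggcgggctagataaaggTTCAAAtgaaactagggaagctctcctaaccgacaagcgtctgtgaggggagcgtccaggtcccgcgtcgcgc
Cenpa (chr5:30666636-30666935, plus strand): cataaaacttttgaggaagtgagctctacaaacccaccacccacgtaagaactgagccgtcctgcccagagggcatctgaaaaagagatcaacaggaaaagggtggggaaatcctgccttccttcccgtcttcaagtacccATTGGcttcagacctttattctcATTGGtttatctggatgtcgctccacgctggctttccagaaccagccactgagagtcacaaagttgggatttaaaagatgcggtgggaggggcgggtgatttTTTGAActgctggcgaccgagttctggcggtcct
Ccnb2 (chr9:70421505-70421804, minus strand): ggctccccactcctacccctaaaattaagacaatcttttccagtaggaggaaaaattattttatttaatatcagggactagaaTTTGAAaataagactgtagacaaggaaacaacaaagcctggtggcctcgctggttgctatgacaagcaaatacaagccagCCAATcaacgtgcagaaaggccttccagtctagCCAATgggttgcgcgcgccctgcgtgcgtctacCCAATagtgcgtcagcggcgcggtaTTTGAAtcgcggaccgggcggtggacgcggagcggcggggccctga
Ube2c (chr2:164769679-164769978, plus strand): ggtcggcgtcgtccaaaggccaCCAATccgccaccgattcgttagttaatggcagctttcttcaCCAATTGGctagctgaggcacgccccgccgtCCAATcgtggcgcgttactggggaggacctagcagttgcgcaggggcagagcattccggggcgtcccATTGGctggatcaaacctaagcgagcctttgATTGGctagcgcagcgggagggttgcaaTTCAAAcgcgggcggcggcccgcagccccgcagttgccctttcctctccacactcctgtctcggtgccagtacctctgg
Rrm1 (chr7:102441445-102441744, plus strand): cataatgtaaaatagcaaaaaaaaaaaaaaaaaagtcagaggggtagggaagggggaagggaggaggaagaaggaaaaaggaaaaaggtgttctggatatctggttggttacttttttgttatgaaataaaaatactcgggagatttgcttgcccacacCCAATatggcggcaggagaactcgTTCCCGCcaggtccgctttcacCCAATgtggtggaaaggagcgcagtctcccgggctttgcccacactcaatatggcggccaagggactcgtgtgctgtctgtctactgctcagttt
Pcna (chr2:132253131-132253430, minus strand): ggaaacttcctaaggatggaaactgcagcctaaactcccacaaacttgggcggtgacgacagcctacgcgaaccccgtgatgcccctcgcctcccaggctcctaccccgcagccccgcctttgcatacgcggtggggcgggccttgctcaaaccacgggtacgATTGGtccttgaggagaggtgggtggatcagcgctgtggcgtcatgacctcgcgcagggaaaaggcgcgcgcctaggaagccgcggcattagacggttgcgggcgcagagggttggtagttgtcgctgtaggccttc
The G2/M promoters of Top2a, Cenpa, Ccnb2 and Ube2c each hold CHR letters and at least 2 CCAAT boxes, whereas of the G1/S promoters that of Rrm1 holds an E2F-type match and no CHR letters and that of Pcna holds neither. Across the 33 genes, CHR letters occurred in 15 of 20 G2/M genes (75%) and 3 of 13 G1/S genes (23.1%), against 19.2% of all 32851 promoters of this length. E2F-type letters occurred in 6 of 13 G1/S genes (46.2%) and 3 of 20 G2/M genes (15%), against 8.07% of all promoters. CCAAT boxes occurred in 26 of 33 genes (78.8%), against 37.4% of all promoters. TTCGAA reads the same on both strands, so each match was counted once. These are matches of letters and no measurement of binding.

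Total counts ran from 7215083 to 32273898 per library. Of the targeted genes, Sidt2 ranged from 171 to 220 CPM (counts scaled to library size, TMM-normalised) in WT cells and was 0.645 to 1.33 CPM in the cells labelled DKO. For Sidt1 the values went against the label: WT cells had 0 to 0.0849 CPM, and cells labelled DKO had 52.5 to 58.8 CPM. All 10 dendritic markers were at 1 CPM or more in WT cells, and the highest of all markers there was the macrophage gene Lyz2 at 27132 CPM. No erythroid marker of 7 and no T or NK marker of 6 reached a mean of 1 CPM in either group of cells. In a single library, Klrb1c reached 1.08 CPM in the cells of mouse 152. The exosome library of mouse 33 stood apart from the others on the second principal component, which held 16.3% of the variance.

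The first comparison asked how the RNA of these genes in exosomes differs from that in the cells of the same cultures. The medium also held serum and X-63 supernatant, and the source of the vesicles was not tested. Most genes of mitosis were lower in exosomes, by 2.35- to 15.05-fold for the motor, kinetochore and spindle genes, whereas 7 of 9 replication genes passed the test in neither direction and E2f1 and Cenpa were higher. In WT mice, 19 of the 40 genes were lower in exosomes and 2 were higher, where 19.6% of the 12829 genes tested were lower and 18.7% higher (edgeR quasi-likelihood test, adjusted p below 0.05). In mice labelled DKO, 24 of the 40 were lower and 2 higher, where 23.7% of the 12316 genes tested were lower and 23.7% higher. The median log2 difference of exosomes from cells was -0.69 in WT and -0.61 in mice labelled DKO, beside -0.02 and -0.01 over all genes tested. Libraries did not overlap for 24 genes lower and 3 higher in WT, where 31.7% and 23.7% of all genes did so, and for 23 lower and 2 higher in mice labelled DKO, where it was 30.8% and 27.7%. The same 19 lower and 2 higher genes were called in both, and Tyms, Ccna2, Ccnb1, Ube2c and Birc5 were called only in mice labelled DKO, and for none of these 5 did the difference between genotypes pass when it was tested itself (interaction, edgeR adjusted p of 0.715 or more). Marker genes of the cultured cells moved as well. Of 10 dendritic markers, 8 were lower in WT exosomes and 9 in those labelled DKO, and their summed CPM was 8576 to 11191 in WT cells against 3009 to 3529 in WT exosomes, and 6285 to 8359 against 2007 to 2281 with the DKO label. Of 9 macrophage markers, 6 were lower and 2 higher in WT and 7 lower and 1 higher in mice labelled DKO, while their sum, mostly Lyz2, was 26873 to 31294 CPM in WT cells and 33618 to 37861 CPM in WT exosomes, and 28180 to 41051 and 33976 to 41887 CPM with the DKO label. Among 6 stem and progenitor markers tested, 3 and 2 were lower and none higher, with median log2 differences of -0.97 and -0.71, and among 10 neutrophil markers 0 and 3 were lower. Of the B-lineage markers tested, 4 of 8 and 3 of 5 were lower, and of the mast and basophil markers 1 of 4 and 1 of 2. Their part in the result was not tested. In bulk RNA, fewer transcripts from the dividing cells of a culture and fewer dividing cells cannot be told apart.

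**Figure D1:**
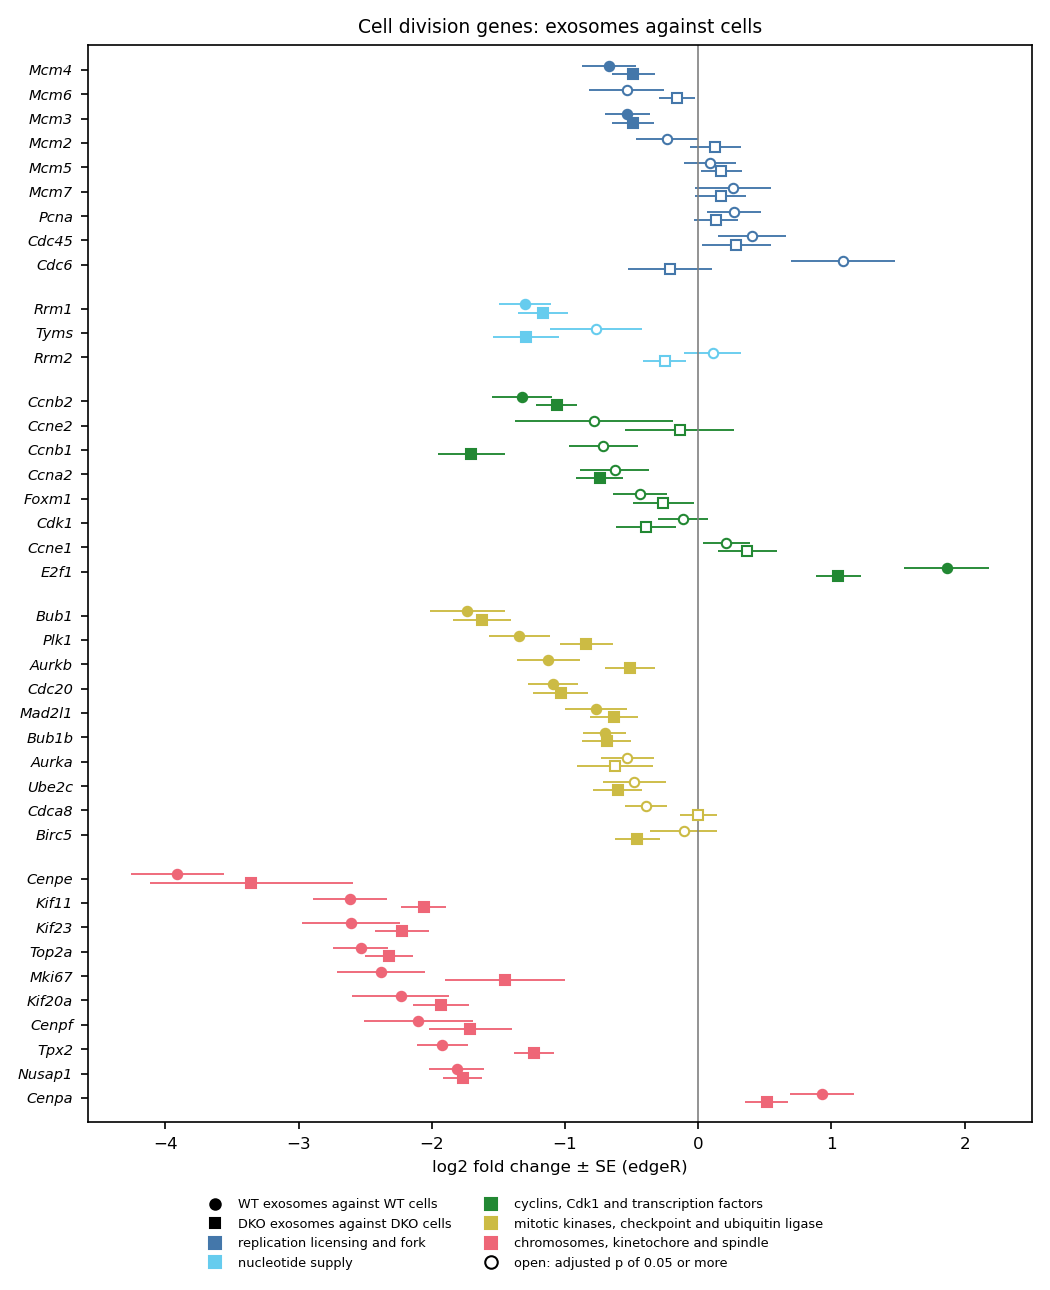
Log2 fold change of exosomes against cells for the 40 genes, grouped by role (rows) with WT as circles and mice labelled DKO as squares; bars are standard errors and filled symbols passed the adjusted p threshold of 0.05. All spindle genes except Cenpa lie left of 0 in both genotypes, and the replication genes lie on both sides of 0.

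The direction was also read within each mouse, pairing its exosomes with its own cells. Of the 40 genes, 25 were lower in exosomes in 6 of 6 mice, 2 (E2f1 and Cenpa) were higher in 6 of 6 and 13 were mixed, where 28.6% of 12970 genes were lower and 22.2% higher in all 6 mice. The median ratio of exosomes to cells over the 40 genes was 0.633, 0.523 and 0.597 in mice 33, 42 and 46. It was 0.613, 0.700 and 0.579 in mice 151, 152 and 153, so every mouse had a median ratio below 1. Together the 40 genes made up between 0.158% and 0.244% of all counts in cells, and between 0.0874% and 0.122% in exosomes.

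Most genes of the pre-replication complex and the fork did not pass the test. Mcm2, Mcm3, Mcm4, Mcm5, Mcm6 and Mcm7 encode the helicase that opens DNA at origins, Cdc6 helps to load it, Cdc45 is part of the active helicase and Pcna is the clamp that holds the polymerase on DNA. Of these 9 genes, 2 were lower (Mcm3 and Mcm4) and none higher in either genotype. Among all genes tested, 19.6% were lower and 18.7% higher in WT, and 23.7% each in mice labelled DKO. The median log2 difference of the 9 genes was 0.09 in WT and 0.13 in mice labelled DKO. Pcna was measured at 75.7, 116 and 113 CPM in the cells of mice 33, 42 and 46 and at 103, 116 and 136 CPM in their exosomes. In mice 151, 152 and 153 Pcna stood at 93.7, 112 and 109 CPM in cells and 85.3, 135 and 120 CPM in exosomes. Cells and exosomes overlapped for Pcna in both genotypes, with a log2 difference of 0.27 ± 0.20 (SE, n = 3; edgeR adjusted p = 0.326) in WT and 0.13 ± 0.16 (n = 3; adjusted p = 0.528) in mice labelled DKO.

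Mcm6 was the other most abundant replication gene. Cell libraries of the WT had 64.7, 76.3 and 87.1 CPM and exosome libraries 29.9, 54.5 and 67.1 CPM, in the order of mice 33, 42 and 46. With the DKO label it stood at 63.1, 61.3 and 59.1 CPM in cells and 45.8, 61.0 and 54.7 CPM in exosomes. The groups overlapped in both genotypes, and neither log2 difference passed the test (-0.54 ± 0.28, edgeR adjusted p = 0.167, and -0.16 ± 0.14, adjusted p = 0.357, n = 3 each). Within mice, the ratio of exosomes to cells was below 1 in 6 of 6, at 0.462, 0.714 and 0.770 in mice 33, 42 and 46 and 0.725, 0.994 and 0.927 in mice 151, 152 and 153. Mcm3 was lower in exosomes by 1.45-fold in WT (edgeR adjusted p = 0.0398) and 1.40-fold in mice labelled DKO (adjusted p = 0.0222). Its WT call was lost with the mouse as a block, where 18 of the 40 genes and 15.9% of all genes were lower in WT. Mcm4 was lower by 1.59-fold (adjusted p = 0.034) and 1.40-fold (adjusted p = 0.0285). Both calls in WT were lost without the cells of mouse 42 or 46 or the exosomes of mouse 33 or 42, and both calls in mice labelled DKO without the cells of mouse 152 or 153 or the exosomes of mouse 151 (for Mcm4 also the cells of mouse 151), with adjusted p up to 0.162 and 0.0929. Cdc6 had the widest spread of the class, at 22.6 CPM in the exosomes of mouse 33 against 9.82 and 10.2 CPM in those of mice 42 and 46, and its WT log2 difference of 1.09 ± 0.39 did not pass (edgeR adjusted p = 0.0607).

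The 3 genes of nucleotide supply differed among themselves. Rrm1 and Rrm2 encode the large and small subunits of ribonucleotide reductase, which makes deoxyribonucleotides, and Tyms encodes thymidylate synthase. Rrm1 was measured at 103, 127 and 135 CPM in WT cells and 42.2, 41.5 and 59.1 CPM in WT exosomes. Rrm1 in mice 151, 152 and 153 stood at 98.6, 101 and 112 CPM in cells and 33.1, 44.8 and 59.7 CPM in exosomes. No exosome library reached the lowest cell library, and Rrm1 was lower by 2.46-fold in WT (log2 -1.30 ± 0.20, edgeR adjusted p = 0.00307) and 2.24-fold in mice labelled DKO (log2 -1.17 ± 0.19, adjusted p = 0.000535, n = 3 each).

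Rrm2, the partner subunit, was not lower in this way. WT cells had 53.5, 64.8 and 68.8 CPM and WT exosomes 83.7, 57.3 and 53.4 CPM. With the DKO label Rrm2 stood at 39.4, 50.6 and 54.7 CPM in cells and 35.2, 45.2 and 39.2 CPM in exosomes. The groups overlapped, with log2 differences of 0.11 ± 0.22 (edgeR adjusted p = 0.72) and -0.25 ± 0.16 (adjusted p = 0.223, n = 3 each), and the sign in WT turned when the cells or the exosomes of mouse 33 were left out (-0.00233 and -0.11). Tyms was lower by 2.46-fold in exosomes of mice labelled DKO (adjusted p = 0.00146), and the WT log2 difference was -0.77 ± 0.34 (adjusted p = 0.113).

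Among cyclins and transcription factors the directions split. Ccnb1 and Ccnb2 encode the B cyclins that drive entry into mitosis with Cdk1, Ccna2 the cyclin of S phase and G2, and Ccne1 and Ccne2 the E cyclins of the G1/S transition. Ccnb2 was measured at 55.2, 53.4 and 55.6 CPM in WT cells and 23.3, 14.8 and 25.5 CPM in WT exosomes. Ccnb2 in mice 151, 152 and 153 stood at 38.0, 42.1 and 44.6 CPM in cells and 16.8, 21.6 and 20.3 CPM in exosomes. Cells and exosomes did not overlap, and Ccnb2 was lower by 2.504-fold (log2 -1.32 ± 0.22, edgeR adjusted p = 0.00454) and 2.09-fold (log2 -1.06 ± 0.16, adjusted p = 0.000278, n = 3 each).

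Ccna2 was measured at 73.1, 85.9 and 86.2 CPM in WT cells and 72.2, 36.5 and 44.7 CPM in WT exosomes, so that mouse 33 alone kept its cell level. With the DKO label Ccna2 stood at 53.9, 59.7 and 62.5 CPM in cells and 25.9, 41.5 and 36.4 CPM in exosomes. Cells and exosomes overlapped in neither genotype, narrowly so in WT (72.2 against 73.1 CPM). Exons of Ccna2 share 12.5% of their bases with Exosc9 on the opposite strand. Its log2 difference was -0.63 ± 0.26 in WT (edgeR adjusted p = 0.0909) and -0.74 ± 0.17 in mice labelled DKO (adjusted p = 0.00498, n = 3 each). Ccnb1 was lower by 3.26-fold in mice labelled DKO (adjusted p = 0.000293), and its WT log2 difference was -0.71 ± 0.26 (adjusted p = 0.0642). Cdk1, the kinase itself, had log2 differences of -0.11 ± 0.19 and -0.39 ± 0.22 that did not pass (adjusted p = 0.668 and 0.172). Ccne1, Ccne2 and Foxm1, the factor that switches on G2/M genes, also passed in neither genotype. Ccne2 shares 17.4% of its exon bases with Ints8 on the opposite strand.

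E2f1, the transcription factor of the G1/S wave, was higher in exosomes in all 6 mice. It was measured at 26.6, 24.6 and 26.4 CPM in WT cells and 133, 86.9 and 52.5 CPM in WT exosomes, in the order of mice 33, 42 and 46. In mice 151, 152 and 153 it stood at 18.5, 26.4 and 23.8 CPM in cells and 45.5, 54.1 and 40.6 CPM in exosomes. The lowest exosome library lay above the highest cell library in each genotype, although the WT exosomes spread widely. The log2 difference was 1.87 ± 0.32 in WT, a 3.64-fold rise (edgeR adjusted p = 0.0047), and 1.05 ± 0.17 in mice labelled DKO, a 2.07-fold rise (adjusted p = 0.000538, n = 3 each), and it passed in every alternative run for these comparisons. The gene lies at chr2:154559400-154569892 (GRCm38). Per kilobase of gene length E2f1 ranked 28th of the 40 genes in cells and 4th in exosomes.

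**Figure D2:**
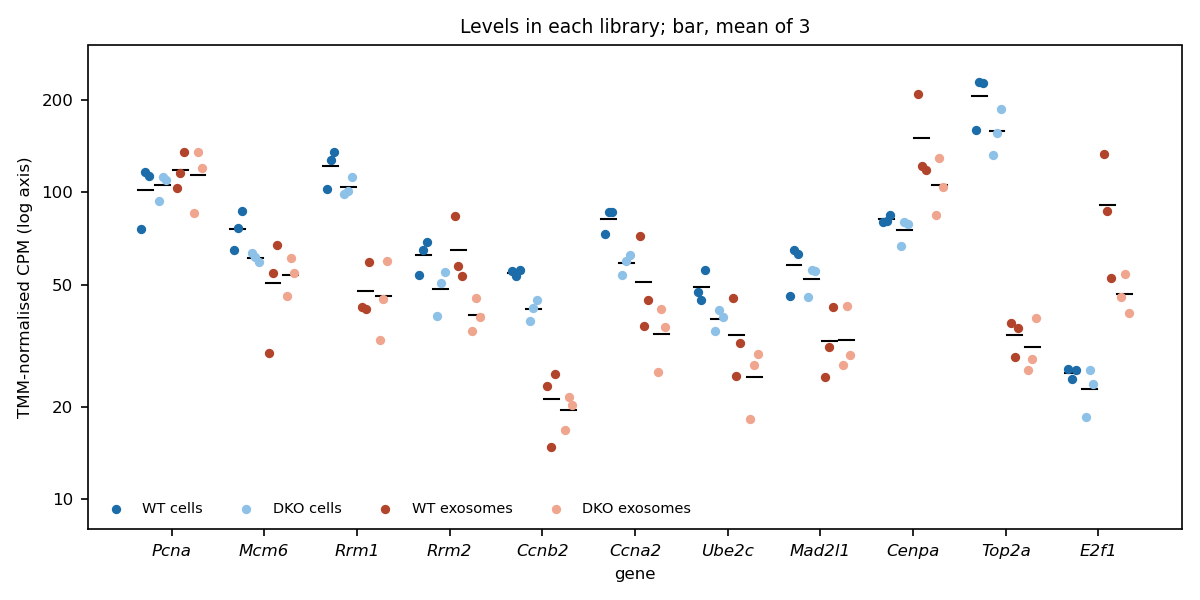
TMM-normalised CPM on a log axis for 11 genes in each of the 12 libraries; points are libraries coloured by group and short bars are means of 3. Exosome points lie below cell points for Rrm1, Ccnb2 and Top2a, above them for E2f1 and among them for Pcna and Rrm2.

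Kinases and brakes of mitosis were lower or did not pass the test. Plk1, Aurka and Aurkb are mitotic kinases, Birc5 and Cdca8 are partners of Aurkb on chromosomes, Bub1, Bub1b and Mad2l1 belong to the spindle checkpoint, and Cdc20 and Ube2c let the anaphase-promoting complex act. Of these 10 genes, 6 were lower in WT (Plk1, Aurkb, Bub1, Bub1b, Mad2l1 and Cdc20). In mice labelled DKO 8 were lower (the same 6, Ube2c and Birc5), and none was higher in either genotype. The all-gene shares were 19.6% lower and 18.7% higher in WT, and 23.7% each in mice labelled DKO. The WT call of Bub1b was lost without the cells of mouse 42 or 46 or the exosomes of mouse 42 (edgeR adjusted p up to 0.0693). Its call in mice labelled DKO was lost without the cells of mouse 153 (edgeR adjusted p = 0.0547). Their median log2 difference was -0.74 in WT and -0.63 in mice labelled DKO. Bub1 had the largest difference, 3.33-fold lower in WT (edgeR adjusted p = 0.00395) and 3.07-fold in mice labelled DKO (adjusted p = 0.000156). Plk1 was lower by 2.53-fold (adjusted p = 0.00479) and 1.79-fold (adjusted p = 0.00575), and Cdc20 by 2.13-fold (adjusted p = 0.00482) and 2.05-fold (adjusted p = 0.00185). The calls of Aurkb and Birc5 in mice labelled DKO, at 1.43-fold (adjusted p = 0.0446) and 1.37-fold (adjusted p = 0.0439), were lost in the fit on all 12 libraries and without several single libraries (up to 0.155). Aurka passed in neither genotype, with adjusted p of 0.0714 and 0.0948.

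The most abundant genes of this class per length, Ube2c and Mad2l1, differed less. Mad2l1 was measured at 45.8, 64.8 and 62.9 CPM in WT cells and 25.03, 31.2 and 42.1 CPM in WT exosomes. Mad2l1 in mice 151, 152 and 153 stood at 45.7, 55.8 and 55.4 CPM in cells and 27.3, 42.5 and 29.5 CPM in exosomes. Cells and exosomes did not overlap, and Mad2l1 was lower by 1.70-fold (log2 -0.77 ± 0.23, edgeR adjusted p = 0.0346) and 1.55-fold (log2 -0.63 ± 0.18, adjusted p = 0.0133, n = 3 each), although the WT call was lost without the cells of mouse 42 or 46 or the exosomes of mouse 33 or 42 (adjusted p up to 0.123) and the other without either library of mouse 153 (up to 0.055).

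Ube2c, the conjugating enzyme of the anaphase-promoting complex, was measured at 47.5, 44.6 and 55.7 CPM in WT cells and 45.0, 25.2 and 32.3 CPM in WT exosomes. With the DKO label Ube2c stood at 35.4, 41.3 and 39.3 CPM in cells and 18.3, 27.3 and 29.7 CPM in exosomes. The WT groups overlapped through mouse 33, and the groups labelled DKO did not overlap. The log2 difference was -0.48 ± 0.24 in WT (edgeR adjusted p = 0.144) and -0.61 ± 0.19 in mice labelled DKO (adjusted p = 0.0191, n = 3 each; lost without the cells of mouse 152 or 153). Exons of Ube2c share 22.8% of their bases with Tnnc2 on the opposite strand, and reads of the pair cannot be told apart because no source used here gives the strand setting.

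Chromosome, kinetochore and spindle genes had the largest differences. Top2a untangles DNA, Mki67 coats mitotic chromosomes, Cenpa, Cenpe and Cenpf act at the centromere and kinetochore, Kif11, Kif20a and Kif23 are motors, and Tpx2 and Nusap1 bind spindle microtubules. In both genotypes, 9 of these 10 genes were lower in exosomes and 1, Cenpa, was higher. Over all genes tested, 19.6% were lower and 18.7% higher in WT, and 23.7% each in mice labelled DKO. The median log2 difference was -2.31 in WT and -1.85 in mice labelled DKO. Summed over the class, exosomes held 55.0%, 30.8% and 29.9% of the CPM of the cells in mice 33, 42 and 46. The same share was 47.3%, 39.98% and 35.7% in mice 151, 152 and 153. Without Cenpa it was 23.9%, 17.03% and 16.9% in the first 3 mice and 36.6%, 21.3% and 23.5% in the others, while for the replication genes it ran from 82.4% to 104% over the 6 mice.

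Top2a (topoisomerase 2 alpha, chr11:98992947-99024199, GRCm38) was the most abundant of the 40 genes in cells before length is considered. It was measured at 159, 229 and 227 CPM in WT cells and 37.5, 29.0 and 36.1 CPM in WT exosomes. Top2a in mice 151, 152 and 153 stood at 132, 155 and 187 CPM in cells and 26.5, 28.6 and 39.0 CPM in exosomes. Every cell library lay above every exosome library, and Top2a was lower by 5.79-fold in WT (log2 -2.53 ± 0.21, edgeR adjusted p = 0.000499) and 5.00-fold in mice labelled DKO (log2 -2.32 ± 0.18, adjusted p = 5.17e-06, n = 3 each). Per kilobase it ranked 4th of the 40 genes in cells and 24th in exosomes.

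The motors followed. Kif11, which pushes the spindle poles apart, was lower by 6.13-fold in WT (edgeR adjusted p = 0.000947) and 4.17-fold in mice labelled DKO (adjusted p = 6.97e-06). Kif23, needed for the last step of dividing the cytoplasm, was lower by 6.09-fold (adjusted p = 0.00258) and 4.67-fold (adjusted p = 1.46e-05). Kif20a was lower by 4.70-fold (adjusted p = 0.00395) and 3.81-fold (adjusted p = 4.39e-05), with 29.3% of its exon bases shared with Cdc23 on the opposite strand. Of the spindle binders, Tpx2 was lower by 3.79-fold (adjusted p = 0.000785) and 2.35-fold (adjusted p = 8.38e-05) and Nusap1 by 3.51-fold (adjusted p = 0.0013) and 3.40-fold (adjusted p = 7.59e-06). These 5 genes and Top2a passed in every alternative run for both genotypes.

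Cenpe, a kinetochore motor, had the largest fold of all 40 genes and the fewest counts in exosomes. It was measured at 24.2, 37.9 and 35.0 CPM in WT cells and 3.29, 1.68 and 1.53 CPM in WT exosomes, a log2 difference of -3.91 ± 0.35 (n = 3, edgeR adjusted p = 0.000598). In mice labelled DKO its exosome libraries held 71, 0 and 37 counts, and the 0 in mouse 152 allows up to 0.196 CPM. The adjusted p there was 0.00656, and the call was lost with DESeq2 and with the mouse as a block. Cenpf, also a kinetochore gene, was lower by 4.29-fold (adjusted p = 0.00711) and 3.27-fold (adjusted p = 0.00109).

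Mki67, which encodes the proliferation marker Ki-67, was uneven among the libraries labelled DKO. It was measured at 103, 128 and 136 CPM in WT cells and 26.6, 29.0 and 11.8 CPM in WT exosomes. In mice 151, 152 and 153 it stood at 105, 108 and 129 CPM in cells and 78.5, 19.5 and 24.7 CPM in exosomes. The exosomes of mouse 151 lay between the cell libraries and the other exosome libraries, and cells and exosomes did not overlap. Mki67 was lower by 5.22-fold in WT (edgeR adjusted p = 0.00248) and 2.73-fold in mice labelled DKO (adjusted p = 0.027), the second of which was lost with the mouse as a block, without the cells of any 1 mouse and without the exosomes of mouse 152 or 153 (up to 0.137). Cenpe and Mki67 were singled out here after their values were seen.

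Cenpa, the histone H3 variant that marks centromeres (chr5:30666877-30674837, GRCm38), went the other way from the rest of its class. It was measured at 80.1, 80.6 and 83.9 CPM in WT cells and 209, 121 and 118 CPM in WT exosomes. With the DKO label Cenpa stood at 66.8, 79.6 and 78.8 CPM in cells and 84.0, 129 and 104 CPM in exosomes. No exosome library fell to the highest cell library of its genotype, and Cenpa was higher by 1.90-fold in WT (log2 0.93 ± 0.24, edgeR adjusted p = 0.0187) and 1.43-fold in mice labelled DKO (log2 0.51 ± 0.16, adjusted p = 0.0209, n = 3 each). The call was lost in both genotypes with total-count scaling, and in WT without the cells of any 1 mouse (adjusted p up to 0.0822). In mice labelled DKO it was also lost in the fit on all 12 libraries. The same held without the cells of mouse 151 or 152 or the exosomes of mouse 152 (up to 0.0915). The direction held in every alternative run. Per kilobase Cenpa ranked 2nd after Pcna in cells and 1st in exosomes.

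**Figure D3:**
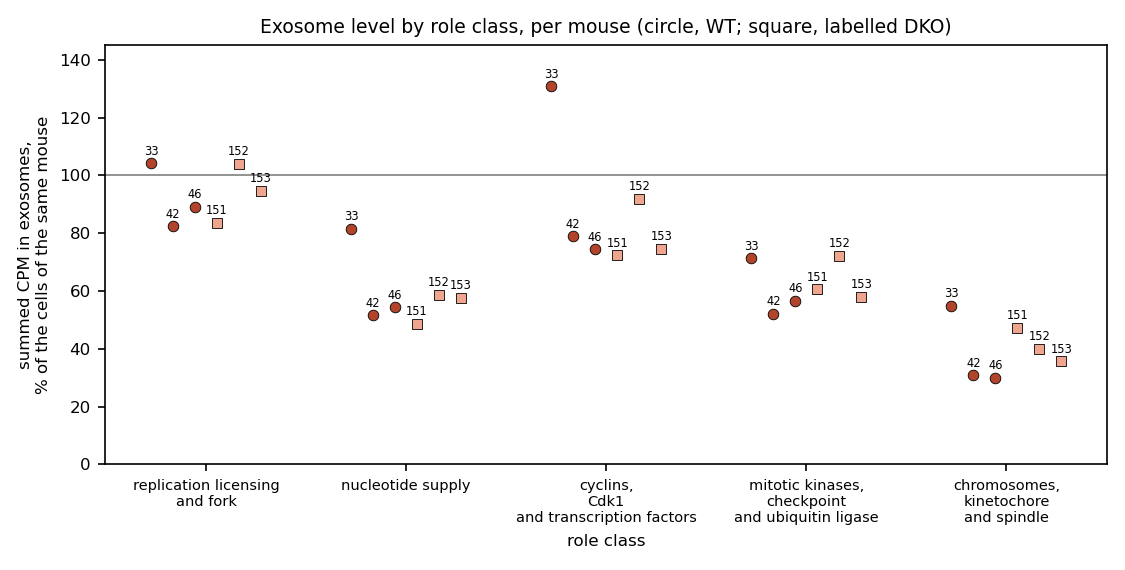
Summed CPM of each role class in the exosomes of a mouse as a percentage of the same sum in its cells (vertical axis), for the 5 role classes along the horizontal axis; each point is a mouse, with its number, circles WT and squares labelled DKO. The spindle class is lowest in 6 of 6 mice (29.9% to 55.0%), and mouse 33 is the highest WT mouse in every class.

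By phase, 16 of 25 G2/M genes were lower and 1 higher in WT, and 20 were lower and 1 higher in mice labelled DKO, with median log2 differences of -1.12 and -1.03. Of 15 G1/S genes, 3 were lower and 1 higher in WT and 4 lower and 1 higher in mice labelled DKO, with medians of 0.09 and -0.14. Among all genes tested, 19.6% were lower and 18.7% higher in WT, and 23.7% each in mice labelled DKO. The counts of lower G1/S genes lay near these shares. Genes whose promoter held CHR letters had a median of -0.90 in WT and -0.76 in mice labelled DKO, and those without had -0.53 and -0.46. Because CHR letters were mostly in G2/M genes, motif and phase cannot be told apart in these medians.

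Length differed between the role classes, from a median of 1931 bases for the mitotic kinase class to 4592 bases for the spindle class, and longer genes were lower in exosomes across the whole table. Over the 40 genes the log2 difference of exosomes from cells correlated with log2 length at Pearson r -0.55 and Spearman rho -0.51 in WT and -0.54 and -0.51 in mice labelled DKO. Over all genes tested it was -0.31 and -0.37 in WT and -0.20 and -0.27 in mice labelled DKO. These are correlations across genes of the same libraries, which are not independent replicates. The 10 longest of the 40 genes (3997 to 11130 bases) had a median of -2.01 in WT and -1.53 in mice labelled DKO, where all genes of that length range had -0.46 and -0.29. The 10 shortest (931 to 1957 bases) had -0.50 and -0.56, where all genes of that range had 0.31 and 0.23. The medians of the 10 longest and the 10 shortest genes were thus each below that of all genes of like length. Genes between these 2 ranges were not compared in this way. Because the spindle class had the longest genes, length and role cannot be fully told apart. The part of length in the result was not tested.

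**Figure D4:**
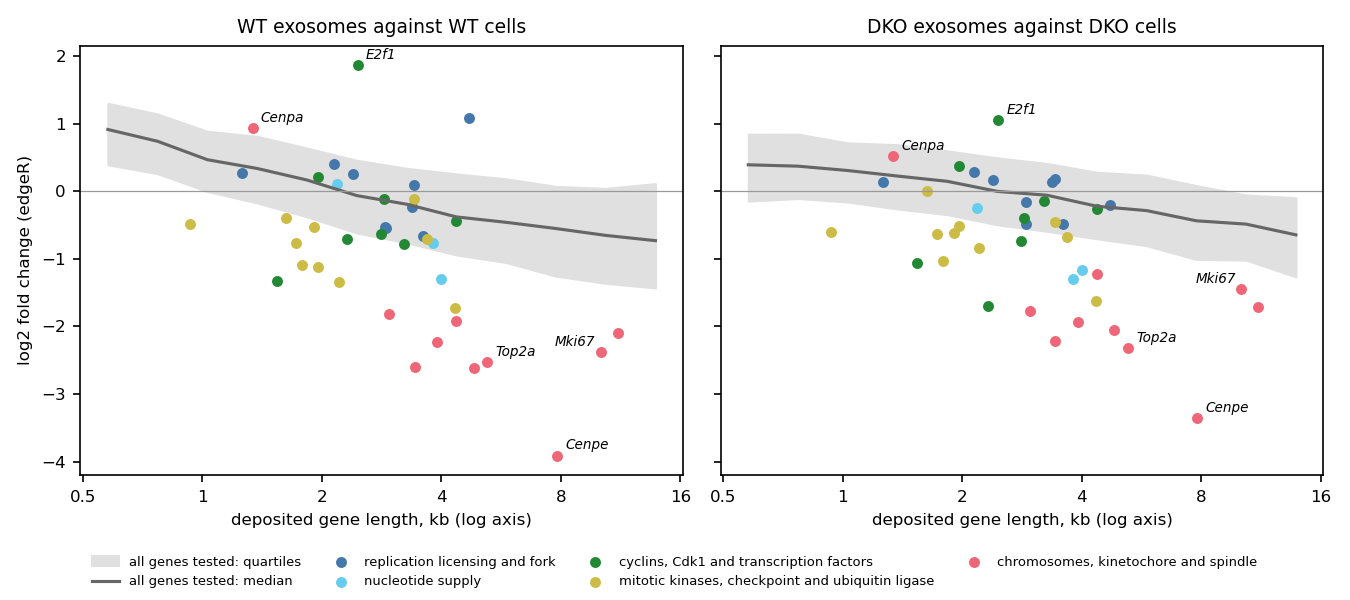
Log2 fold change of exosomes against cells (vertical axis) plotted against deposited gene length in kilobases (log axis) for WT (left) and mice labelled DKO (right); points are the 40 genes coloured by role, the line is the median of all genes tested and the band their quartiles. Most of the 40 genes lie below the line, among them all spindle genes except Cenpa, which lies above it.

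The spread between mice was wider in exosomes than in cells. The median coefficient of variation of the 40 genes was 14.0% in WT cells and 10.8% in cells labelled DKO, against 26.6% and 20.9% in the exosomes. Without either library of mouse 33, whose exosomes stood apart, 27 of the 40 genes were lower and 2 higher in WT exosomes, where 23.3% of all genes were lower and 20.9% higher, with a median log2 difference of -0.77. When libraries were scaled to their total counts, the all-gene median moved to -0.39 in WT and -0.14 in mice labelled DKO, and 27 and 25 of the 40 genes were then lower and 1 higher in each, where 32.2% and 27.9% of all genes were lower and 8.68% and 17.98% higher.

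Other cell cycle genes outside the 40 were read from the same fits. There, 19.6% of all genes were lower and 18.7% higher in WT, and 23.7% each in mice labelled DKO. Of 68 other mitosis genes, 41 were lower and 2 higher in WT exosomes and 48 lower and 2 higher in those labelled DKO (median -1.08 and -1.11). The condensin gene Smc4 fell from 144.9 ± 26.6 CPM (SD, n = 3) in WT cells to 16.3 ± 4.68 CPM in their exosomes (edgeR adjusted p = 0.000504), and the kinesin gene Kif18a from 8.76 ± 0.829 to 0.717 ± 0.171 CPM in mice labelled DKO (adjusted p = 1.81e-05). Cenpm, a kinetochore gene, rose in both (log2 1.78 ± 0.38, adjusted p = 0.01, and 1.25 ± 0.30, adjusted p = 0.00571). Of 45 other replication genes, 12 were lower and 3 higher in WT and 12 lower and 5 higher in mice labelled DKO (median -0.34 and -0.26), with Gins3, a subunit of the fork helicase, lower in both and Rfc2 and Chaf1b, which load the clamp and assemble chromatin, higher in both.

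Of 39 regulators and inhibitors of G1, 5 were lower and 14 higher in WT and 7 lower and 11 higher in mice labelled DKO (median 0.16 and -0.05). The all-gene shares were 19.6% lower and 18.7% higher in WT, and 23.7% each in mice labelled DKO. Cdkn1b, which encodes the cyclin kinase inhibitor p27, fell from 84.3 ± 5.88 to 18.5 ± 8.22 CPM in WT (n = 3, edgeR adjusted p = 0.00295) and from 94.3 ± 3.97 to 23.1 ± 1.90 CPM in mice labelled DKO (adjusted p = 1.68e-06). Ccnd3, a cyclin of G1, rose from 67.9 ± 6.28 to 157 ± 48.5 CPM (adjusted p = 0.0061) and from 49.2 ± 5.95 to 101 ± 9.98 CPM (adjusted p = 0.000107).

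The second comparison asked whether cells labelled DKO differed from WT cells in these genes. None of the 40 passed the test, where 0.404% of 13106 genes were called in either direction, and the smallest adjusted p was 0.104 (Aurkb, edgeR). At an unadjusted p below 0.05 there were 18 of the 40, where 10.8% of all genes passed. That number depended on single cell libraries. Omitting mouse 33, 42 or 46 gave 26, 8 and 8 genes, where 10.3%, 11.4% and 11.4% of all genes passed. Omitting mouse 151, 152 or 153 gave 6, 9 and 20, where 7.89%, 8.64% and 7.47% passed. The fit on all 12 libraries gave 7, where 4.46% of all genes passed. The estimates leaned low, with 38 of 40 below 0 and a median log2 difference of -0.28, beside 51.8% below 0 and a median of -0.01 over all genes. Cells labelled DKO lay below all WT cells for 16 of the 40 genes and above them for none, where 9.71% of all genes lay below and 7.52% above.

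The estimates ran from -0.66 for Plk1 to 0.08 for Pcna. Plk1 was measured at 33.8, 24.7 and 24.6 CPM in WT cells and 14.9, 21.1 and 15.3 CPM in cells labelled DKO, and Aurkb at 30.6, 33.6 and 32.5 CPM against 19.0, 23.2 and 21.4 CPM. Mcm2 was measured at 23.2, 27.0 and 25.7 CPM in WT cells and 16.1, 15.5 and 18.9 CPM in cells labelled DKO. None of these 3 genes overlapped between the groups, and their 95% intervals of the log2 difference lay below 0 (-1.04 to -0.27, -0.85 to -0.29 and -0.88 to -0.25). DESeq2 called these 3 genes (adjusted p = 0.0494, 0.018 and 0.0475), where it called 1.46% of all genes. Voom with quality weights called 5 of the 40 (1.59% of all genes), the fit with no filter 2 (1.01%) and the fit without the cells of mouse 33 called 6 (0.918%). Plk1, Aurkb and Mcm2 were named here after their values were seen.

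Other measures moved with this lean. Summed CPM of 7 stem and progenitor markers was 58.8 to 71.1 in WT cells and 37.0 to 55.8 in cells labelled DKO, that of 10 dendritic markers was 8576 to 11191 against 6285 to 8359, and that of 9 B-lineage markers was 99.5 to 194 against 46.0 to 70.1. For 6 mast and basophil markers the sum was 16.2 to 25.5 CPM in WT cells and 7.86 to 11.1 CPM in cells labelled DKO. Sums of 10 neutrophil markers overlapped (1084 to 1925 against 974 to 1428 CPM), with 9 of 10 estimates below 0 and a median of -0.64. Macrophage markers overlapped as well (26873 to 31294 against 28180 to 41051 CPM), with a median of 0.10. Their part in the result was not tested. Against the cells of the single WT male, the mean of cells labelled DKO was lower for 40 of 40 genes (median log2 difference -0.43). With sex as a covariate the median was -0.40 and 0 of the 40 genes passed, where 0.0839% of all genes did.

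**Figure D5:**
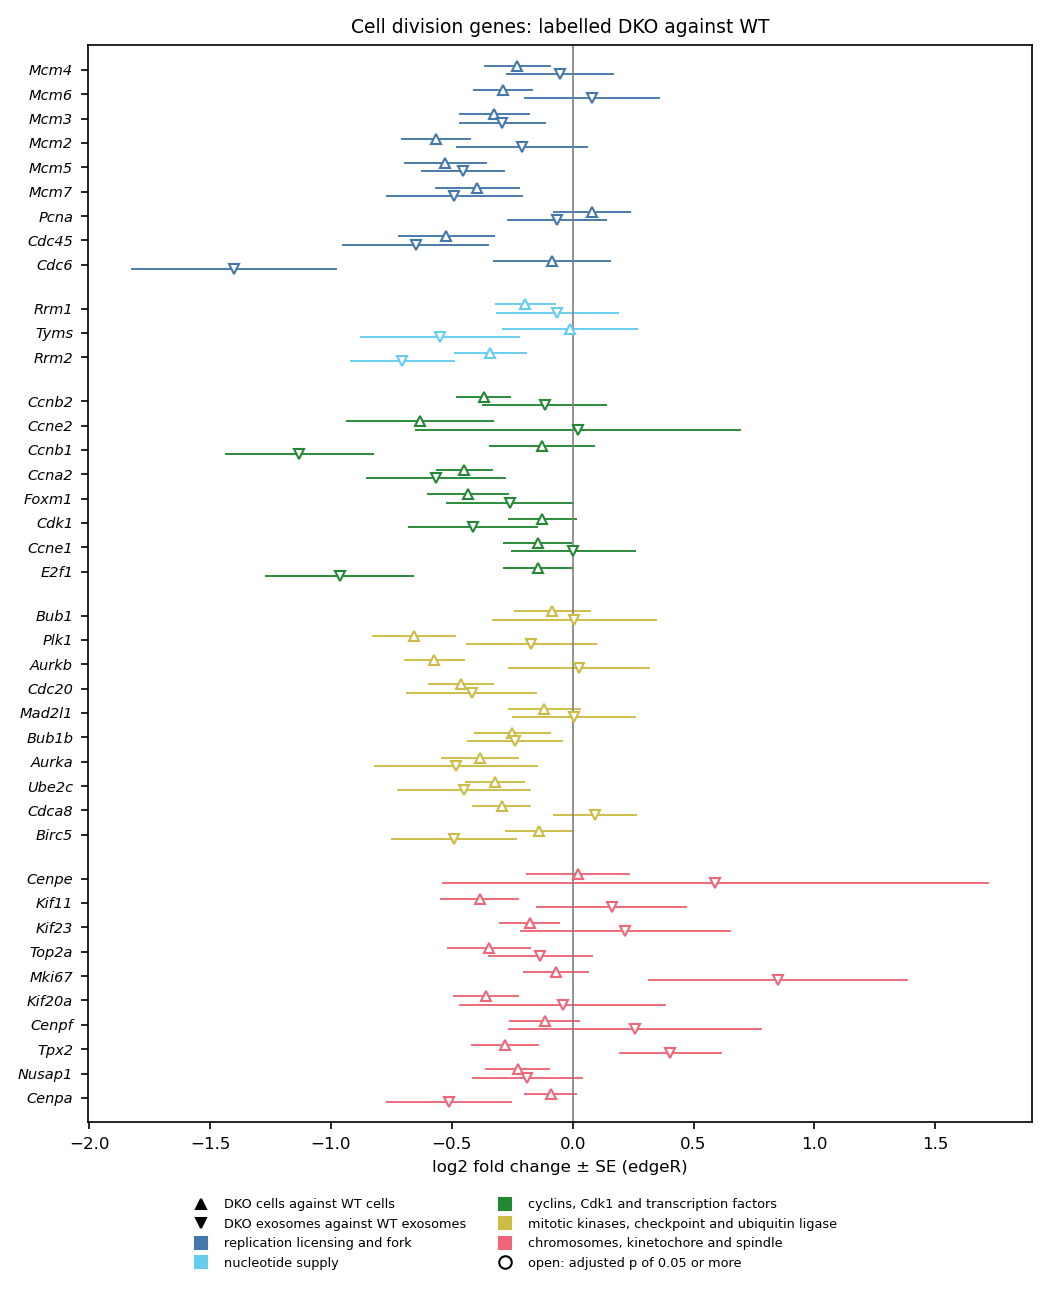
Log2 fold change of libraries labelled DKO against WT for the 40 genes, with cells as upward and exosomes as downward triangles; bars are standard errors and open symbols mark an adjusted p of 0.05 or more. No symbol is filled, 38 of 40 cell estimates lie left of 0 and the exosome estimates spread from -1.40 to 0.85.

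In the exosomes, none of the 40 genes passed between genotypes, where 0.0332% of 12064 genes were called in either direction, and the smallest adjusted p was 0.552 (edgeR). At an unadjusted p below 0.05 there were 5 of the 40, where 8.32% of all genes passed. DESeq2 and voom called 0 of the 40, where they called 0.274% and 0.406% of all genes. The median log2 difference was -0.18, with 27 of 40 below 0, where 50.8% of all genes were below 0. That median ranged from -0.27 without the exosomes of mouse 153 to -0.08 without those of mouse 46, and it was -0.02 with total-count scaling, where the all-gene median was 0.15, and -0.32 with sex as a covariate. Without the exosomes of mouse 151 it was -0.11. Estimates were also below 0 for 10 of 10 neutrophil markers (median -1.32, summed CPM 557 to 3640 in WT and 663 to 1436 with the DKO label) and 9 of 9 dendritic markers tested (median -0.69), with none called. Their part in the result was not tested. Libraries labelled DKO lay below all WT exosomes for 6 genes and above them for 1, where 6.77% of all genes lay below and 8% above. E2f1, at 52.5 to 133 CPM in WT exosomes and 40.6 to 54.1 CPM in those labelled DKO, overlapped between the groups (log2 -0.96, 95% interval -1.66 to -0.26), and it was called without the exosomes of mouse 46 (log2 -1.22, edgeR adjusted p = 0.0415). Intervals were wide, reaching -1.99 to 3.17 for Cenpe.

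The interaction asked whether the difference of exosomes from cells depended on genotype. None of the 40 genes passed, where 0% of 12970 genes were called, and the smallest adjusted p was 0.715 (edgeR). At an unadjusted p below 0.05 there were 4 of the 40 (Cdc6, Ccnb1, E2f1 and Tpx2), where 5.98% of all genes passed. DESeq2 called 0, as it did over all genes (0%). Voom called 1, Tpx2, at a log2 difference of 0.97 (voom adjusted p = 0.0465), where it called 0.37% of all genes. Estimates ran from -1.28 for Cdc6 to 0.95 for Mki67, where the exosomes of mouse 33 were the highest library for Cdc6 and those of mouse 151 the highest exosome library for Mki67. The 95% intervals of the log2 interaction were -2.40 to -0.16 for Cdc6 and -0.40 to 2.29 for Mki67.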

How the data were processed

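The deposited values are raw counts per gene, which the authors made with featureCounts on mm10, per the submitters' processing notes. No source used here gives the aligner, versions, annotation or strand setting. Per the labels, libraries were made from 200 ng of RNA and read as 80 bp paired ends. Symbols and coordinates (GRCm38) were matched by identifier for 25275 of 27179 rows. Levels (CPM) are counts scaled to library size with TMM over the 12 libraries. The main test was the quasi-likelihood F test of edgeR 4.0.16 (R 4.3.3) with robust fits, its filter on low counts by group and p-values adjusted after Benjamini and Hochberg over the whole table. Pairwise fits used the 6 libraries compared and the interaction fit all 12. These main fits treated the cell and exosome libraries of a mouse as independent, and only the mouse block used their pairing. A gene counts as called when its adjusted p is below 0.05. Alternatives included other scalings and filters, DESeq2 1.42.0, voom of limma 3.58.1, sex as a covariate, a mouse block and each library left out.

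The mouse number marks both libraries of an animal, so it pairs cells with exosomes. The correlation of the paired deviations from their groups' means was 0.00256, 0.0816 and 0.0927 (mice 33, 42, 46) and 0.159, 0.123 and 0.119 (mice 151, 152, 153). Genes given in every library are the 2 most abundant per length in the cells in each role class and those called against the majority. The members, lists and rule were chosen with earlier results of these data known. Promoter letters were searched on both strands in RefSeq sequences.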

Additional observations from a re-analysis of the deposited data

How the results depend on the processing

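Calls lower in WT exosomes numbered 19, where 19.6% of all genes were lower. They numbered 15 to 21 when 1 library was left out, where the all-gene share was 9.88% to 21.9%. Without both libraries of mouse 33 there were 27 (23.3% of all genes), and with voom 29 (32.8%). In mice labelled DKO there were 24 calls lower, where 23.7% of all genes were lower. With 1 library left out they ran from 16 without the cells of mouse 153 (18.2%) to 25 without the exosomes of mouse 152 (24.5%). Without the cells of mouse 152 there were 18 (18.7%). The median of -0.61 moved to -0.43 without the exosomes of mouse 151. In WT the 2 calls higher became 1 with total-count scaling (8.68% of all genes). They became 1 to 3 when 1 library was left out (7.68% to 20.1%). In mice labelled DKO the 2 calls higher became 1 with total-count scaling (17.98% of all genes) and 1 in the fit on all 12 libraries (18.6%). They became 1 to 3 when 1 library was left out (17.4% to 23.97%). Between cells, the 0 calls lower became 2 with no filter (0.461% of all genes), 3 with DESeq2 (0.565%) and 5 with voom (0.534%). They became 0 to 6 when 1 library was left out (0.00768% to 0.362%). Between exosomes they became 0 to 1 when 1 library was left out (0.00801% to 1.04%). The interaction gained 1 higher call with voom, where 0.308% of all genes were called higher.

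With the mouse as a replicate block, 18 genes were lower and 2 higher in WT exosomes, where 15.9% of all genes were lower and 13.98% higher. In those labelled DKO 24 were lower and 2 higher, where 26.2% of all genes were lower and 25% higher. The interaction had 0 calls with the block, as it had over all genes (0%). The block ended the calls of Mcm3 in WT and of Mki67 and Cenpe in mice labelled DKO and of none of the other named members. The sign turned for Pcna in WT with total-count scaling (-0.11) and in mice labelled DKO without the exosomes of mouse 152 (-0.013). It turned for Rrm2 in WT with total-count scaling (-0.28), with voom (-0.14) and without the cells (-0.00233), the exosomes (-0.11) or both libraries (-0.23) of mouse 33. Over the fits with 1 library left out, the value ran from -0.11 to 0.22 for Rrm2 in WT and from -0.013 to 0.31 for Pcna in mice labelled DKO. Of the other results for single members, 722 kept their direction and side of the threshold, 57 lost the threshold and 11 passed it. The cause was not tested. Depth limits Cenpe most, with 0 to 71 counts per exosome library.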
